A study of Saccharomyces cerevisiae with 3 samples.

Results

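The autophagy genes named *ATG* and a number were examined in aged yeast that lack *MET15*, with and without *RTG3*. A member was any *Saccharomyces cerevisiae* probe set whose gene symbol in the array annotation is ATG followed only by digits. This gave 34 probe sets for 34 genes, of 5449 *S. cerevisiae* genes that the annotation names on the array. Total RNA was taken on Day 3 of culture from *rtg3Δ met15Δ*, *met15Δ* and wild-type haploid yeast, and each genotype was hybridized to 1 Affymetrix Yeast Genome 2.0 array. All strains derive from the BY4741/BY4742 background and carry its *his3*, *leu2* and *ura3* deletions, and the cultures were aged in synthetic complete medium. The *met15Δ* cells lack the sulfhydrylase that fixes sulfide into homocysteine, and the *rtg3Δ met15Δ* cells also lack a transcription factor of the retrograde response, by which mitochondria signal to the nucleus. Since *RTG3* was deleted only together with *MET15* on the arrays analysed here, what its loss does in cells that keep *MET15* was not measured. Each genotype had a single array, so variation between cultures was not measured, and neither an error nor a test could be computed.

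Autophagy carries parts of the cytoplasm to the vacuole, the lytic compartment of yeast, where they are broken down and their amino acids returned to the cell. The Atg1 kinase complex starts the process when nutrients run short and TORC1, the nutrient-responsive kinase, is less active. A lipid kinase complex and vesicles that carry Atg9 then build a cup-shaped membrane, and a pair of ubiquitin-like systems attach Atg8 to the lipid of that membrane so that it grows and closes. Receptor proteins tether chosen cargo, such as mitochondria, peroxisomes, endoplasmic reticulum or the vacuolar enzymes of the cytoplasm-to-vacuole targeting (Cvt) pathway, to Atg8.

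The values are the signals that the authors made with RMA, 1 per probe set on a linear scale. Signals of different probe sets are not comparable as transcript levels, and each gene is compared only with itself across arrays. Both deleted genes read at the level of a probe set without a target in the strains that lack them, *MET17* (*MET15*) at 89.9 in *rtg3Δ met15Δ*, 85.0 in *met15Δ* and 2874 in wild-type cells and *RTG3* at 28.7 in the double mutant, 2215 in *met15Δ* and 2703 in wild-type cells. Probe sets for genes of another yeast species show what a probe set without a target reads, and their highest signals were 289 in *rtg3Δ met15Δ* and 273 in both *met15Δ* and wild-type. Of the 34 members, 1 lay under that limit in each mutant and 5 in wild-type. Where the lower signal of a ratio lay under it, the fold is given as "at least", taken against the limit. The 17 probe sets for *atg* genes of the other species read 16.8 to 75.0 in *rtg3Δ met15Δ*, 16.8 to 59.9 in *met15Δ* and 16.8 to 63.0 in wild-type. The wild-type array also differed from the mutants in markers of mating type. All 7 a-cell markers were at least 2-fold higher in *rtg3Δ met15Δ* than in wild-type cells and 6 of 7 in *met15Δ* cells. Among these 6, *ASG7* and *BAR1* have only folds of at least 1.25 and 1.43 in *met15Δ* cells. Summed signals were 33107 in *rtg3Δ met15Δ*, 13153 in *met15Δ* and 1949.9 in wild-type. Between the mutants, 5 of the 7 were at least 2-fold higher in *rtg3Δ met15Δ* than in *met15Δ* cells. The 4 alpha-cell markers summed to 5827 in the double mutant, 1917 in *met15Δ* and 3759 in wild-type, but went different ways. *STE3* was at 1146 in the double mutant, 454 in *met15Δ* and 2157 in wild-type. *MF(ALPHA)1* was at 2807 in the double mutant, 101 in *met15Δ* and 344 in wild-type. *SAG1* was highest in the double mutant and *MF(ALPHA)2* in wild-type. The lowest of the 4 read 129 in the double mutant, 101 in *met15Δ* and 250.4 in wild-type, and no marker was at 0. *HMRA1* was at 5016 in the double mutant, 4073 in *met15Δ* and 47.1 in wild-type, and *HMLALPHA1* at 59.7 in the double mutant, 71.5 in *met15Δ* and 977 in wild-type. Genotype and mating type therefore cannot be told apart in a comparison with wild-type, and the part of mating type in the *ATG* differences was not tested.

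Many *ATG* genes had more transcript in *met15Δ* than wild-type cells, and none had at least 2-fold less. Of the 34, 15 were higher in *met15Δ* cells by at least 2-fold, and 0 were lower by as much. Over all 5498 *S. cerevisiae* probe sets that share was 16.8% higher and 11.1% lower, against 44.1% of the *ATG* probe sets higher. The median log2 ratio of the *ATG* probe sets was 0.87, or 0.73 with signals under the limit raised to it, against 0.07 over all *S. cerevisiae* probe sets. The ratio was above 0 for 27 of the 34 and below 0 for 7, the lowest of them -0.48. With the limit applied to low signals, 14 were at least 2-fold higher, since *ATG29* has only a lower bound under 2-fold. In RNA from a whole culture, more cells that carry a transcript and more of it per cell cannot be told apart.

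**Figure D1:**
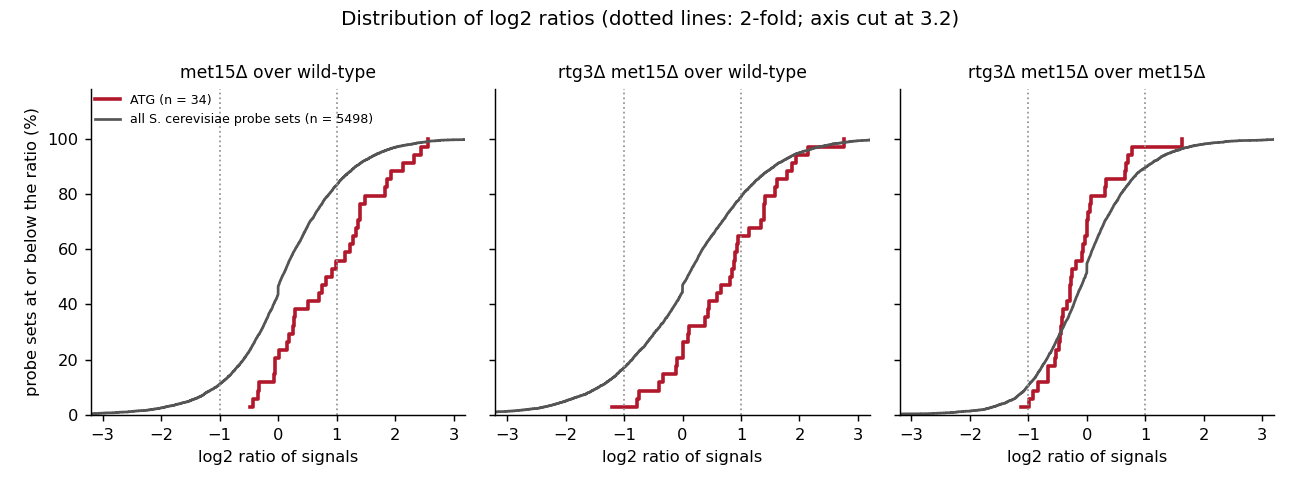
Share of probe sets at or below each log2 ratio of signals, for the 34 *ATG* probe sets (red) and all 5498 *S. cerevisiae* probe sets (grey), in *met15Δ* over wild-type (left), *rtg3Δ met15Δ* over wild-type (middle) and *rtg3Δ met15Δ* over *met15Δ* (right). The *ATG* curve lies right of the grey one at its median in the left panel (0.87 against 0.07) and the middle panel (0.83 against 0.08), and left of it in the right panel (-0.26 against -0.03). The first 2 panels share the wild-type array.

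All 5 genes of the Atg1 kinase complex had more signal in *met15Δ* than wild-type cells, and *ATG17* and *ATG31* passed 2-fold also against the other-species limit. Together with Atg29 they form the scaffold trimer that recruits the other Atg proteins to the site of assembly. *ATG31* had a signal of 2552 in *rtg3Δ met15Δ*, 2622 in *met15Δ* and 739 in wild-type cells, which was 3.55-fold higher in *met15Δ* than wild-type. For *ATG17* the signals were 1079 in the double mutant, 629 in *met15Δ* and 245 in wild-type, and its *met15Δ* signal was at least 2.30-fold that of wild-type. *ATG17* was the member of the complex with its highest signal in the double mutant, while the other 4 were highest in *met15Δ* cells. *ATG29*, the third part of the trimer, read 311 in the double mutant, 382 in *met15Δ* and 173 in wild-type, so that its wild-type signal lay under the limit, only a fold of at least 1.40 can be given for *met15Δ* cells, and its annotated gene overlaps another one in the gene table. The kinase gene *ATG1* itself had 3955 in *rtg3Δ met15Δ*, 6237 in *met15Δ* and 3701 in wild-type cells, a log2 ratio of 0.75 for *met15Δ* over wild-type. *ATG13*, whose product links the kinase to the scaffold and is phosphorylated by TORC1, had 933 in the double mutant, 1176 in *met15Δ* and 619 in wild-type and a log2 ratio of 0.93. Neither passed 2-fold, and the *ATG1* signal of the double mutant was close to that of wild-type.

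**Figure D2:**
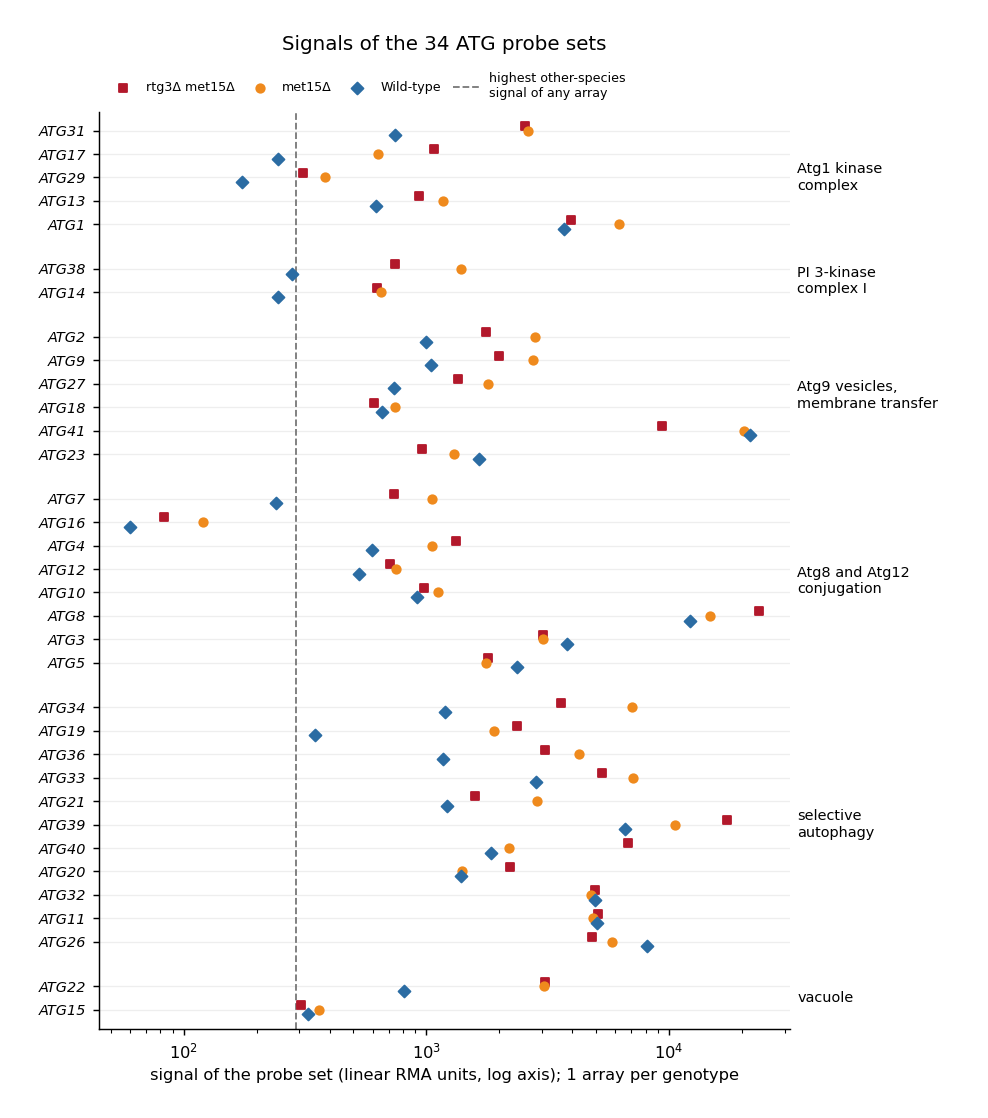
Signals of the 34 *ATG* probe sets on a log axis, grouped by role, with 1 point per array: *rtg3Δ met15Δ* (red squares), *met15Δ* (orange circles) and wild-type (blue diamonds), drawn slightly apart in height so that equal signals can be seen. The dashed line is 289, the highest other-species signal of any array. *ATG16* lies left of it in all genotypes, and *ATG7*, *ATG14*, *ATG17*, *ATG29* and *ATG38* lie left of it only in wild-type.

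Phosphatidylinositol 3-kinase complex I, which marks the growing membrane with its lipid, showed the same direction in both of its *ATG* members on the array. *ATG38*, which encodes a subunit that holds the complex together, had a signal of 740.3 in *rtg3Δ met15Δ*, 1395 in *met15Δ* and 281 in wild-type cells. This was 4.97-fold higher in *met15Δ* than wild-type, although its wild-type signal lay only just above the other-species limit of 273. *ATG14*, which directs the kinase to autophagy, had 624 in the double mutant, 650.0 in *met15Δ* and 245 in wild-type, at least 2.38-fold higher in *met15Δ* than wild-type cells and nearly the same in the mutants.

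The genes for Atg9 vesicles and for lipid transfer to the membrane differed among themselves. *ATG2*, *ATG9* and *ATG27* were at least 2-fold higher in *met15Δ* than wild-type cells, while *ATG18*, *ATG23* and *ATG41* were not. *ATG2*, whose product moves lipid into the membrane, had a signal of 1759 in *rtg3Δ met15Δ*, 2793 in *met15Δ* and 996 in wild-type cells, 2.80-fold higher in *met15Δ* than wild-type. For *ATG9*, which encodes the transmembrane protein of the vesicles, the signals were 1984 in the double mutant, 2761 in *met15Δ* and 1044 in wild-type, 2.65-fold higher in *met15Δ* cells. *ATG27*, which acts in the traffic of Atg9, had 1354 in the double mutant, 1787 in *met15Δ* and 736 in wild-type, 2.43-fold higher in *met15Δ* cells. In all 3 the double mutant lay between *met15Δ* and wild-type. *ATG23*, another gene of Atg9 traffic, was lowest in the double mutant, at 961 against 1304 in *met15Δ* and 1649 in wild-type cells, with a log2 ratio of -0.34 for *met15Δ* over wild-type. *ATG41*, whose product binds Atg9, hardly differed between *met15Δ* (20443) and wild-type (21519) and was at 9325 in *rtg3Δ met15Δ* cells. *ATG18*, whose product binds the lipid made by the kinase, had 608 in the double mutant, 743 in *met15Δ* and 655 in wild-type cells, all within 2-fold.

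Among the 8 genes of the Atg8 and Atg12 conjugation systems, 1 (*ATG7*), or 12.5%, passed 2-fold upward in *met15Δ* cells and 0 downward. That upward share was near the 16.8% over all *S. cerevisiae* probe sets, of which 11.1% were lower. The median log2 ratio of the group was 0.40, against 0.07 over all. *ATG7* encodes the activating enzyme that both systems share. Its signal was 737 in *rtg3Δ met15Δ*, 1056 in *met15Δ* and 239 in wild-type cells, at least 3.86-fold higher in *met15Δ* than wild-type. *ATG8*, the ubiquitin-like protein that is joined to lipid, had 23468 in the double mutant, 14737 in *met15Δ* and 12199 in wild-type, log2 ratios of 0.27 for *met15Δ* and 0.94 for *rtg3Δ met15Δ* over wild-type. *ATG4*, the protease that trims Atg8 and releases it again, had 1319 in the double mutant, 1056 in *met15Δ* and 598 in wild-type. Both were highest in the double mutant, and *ATG4* was 2.21-fold higher there than in wild-type. *ATG5*, which is joined to Atg12, had 1791 in *rtg3Δ met15Δ*, 1764 in *met15Δ* and 2367 in wild-type cells. With a log2 ratio of -0.42 for *met15Δ* over wild-type it was the lowest of the group, followed by *ATG3*, the conjugating enzyme for Atg8, at -0.34. *ATG3* gave 3019.6 in both mutants and 3809 in wild-type cells. *ATG12* had 711 in the double mutant, 752 in *met15Δ* and 527 in wild-type, and the conjugating enzyme gene *ATG10* had a log2 ratio of 0.29. *ATG16*, whose product joins the Atg12 conjugate into a larger complex, was under the other-species limit on every array (82.7 in the double mutant, 119.9 in *met15Δ* and 60.2 in wild-type), and no fold is given for it.

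The highest ratios of *met15Δ* over wild-type among the members were those of *ATG34* and *ATG19*, receptor genes of selective autophagy. They encode related proteins, and the gene table places them next to each other on chromosome XV (YOL083W and YOL082W). Atg19 brings the aminopeptidase Ape1 and the mannosidase Ams1 to the vacuole in the Cvt pathway, and Atg34 carries Ams1 under starvation. *ATG34* had a signal of 3576 in *rtg3Δ met15Δ*, 7055 in *met15Δ* and 1197 in wild-type cells, and was 5.90-fold higher in *met15Δ* than wild-type. Only 1.07% of all *S. cerevisiae* probe sets had a higher ratio. *ATG19* had 2359 in the double mutant, 1892 in *met15Δ* and 349 in wild-type, 5.43-fold higher in *met15Δ* than wild-type. The neighbours differed in the double mutant, where *ATG34* was lower than in *met15Δ* cells (log2 ratio -0.98) and *ATG19* was not (log2 ratio 0.32).

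The other genes of the selective autophagy group, not all of which encode receptors, differed in their pattern. *ATG36*, the receptor gene for peroxisomes, had a signal of 3077 in *rtg3Δ met15Δ*, 4242 in *met15Δ* and 1169 in wild-type cells, 3.63-fold higher in *met15Δ* than wild-type. *ATG33*, which acts in the removal of mitochondria, had 5309 in the double mutant, 7135 in *met15Δ* and 2839 in wild-type, 2.51-fold higher in *met15Δ* cells. *ATG21*, a lipid-binding protein gene of the Cvt pathway, had 1591 in the double mutant, 2845 in *met15Δ* and 1219.6 in wild-type, 2.33-fold higher in *met15Δ* cells. These 3 were highest in *met15Δ* cells. The receptors for the endoplasmic reticulum and the nuclear envelope were instead highest in the double mutant. *ATG40*, the receptor gene for the endoplasmic reticulum, had 6769 in *rtg3Δ met15Δ*, 2185 in *met15Δ* and 1839 in wild-type cells. *ATG39*, the receptor gene for the nuclear envelope, had 17325 in the double mutant, 10629.9 in *met15Δ* and 6554 in wild-type, with a log2 ratio of 0.70 for *met15Δ* over wild-type. *ATG32*, which encodes the mitochondrial receptor, was nearly level, at 4939.5 in both *rtg3Δ met15Δ* and wild-type and 4759.9 in *met15Δ* cells. So was *ATG11*, the scaffold gene that receptors bind, at 5072 in *rtg3Δ met15Δ*, 4842 in *met15Δ* and 5045 in wild-type cells. *ATG20*, a sorting nexin gene, was at 2204 in the double mutant, 1403 in *met15Δ* and 1395 in wild-type. *ATG26*, a sterol glucosyltransferase gene, had the lowest log2 ratio of all members for *met15Δ* over wild-type, -0.48, with signals of 4835 in the double mutant, 5818 in *met15Δ* and 8136 in wild-type.

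The last steps in the vacuole were represented by 2 genes. *ATG22*, which encodes an exporter of amino acids from the vacuole, had a signal of 3085 in *rtg3Δ met15Δ*, 3066 in *met15Δ* and 808 in wild-type cells. It was 3.79-fold higher in *met15Δ* than wild-type and nearly equal in the mutants. *ATG15*, the lipase gene for breaking open the delivered vesicles, had 305 in the double mutant, 362 in *met15Δ* and 326 in wild-type, close to the other-species limit on every array.

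**Figure D3:**
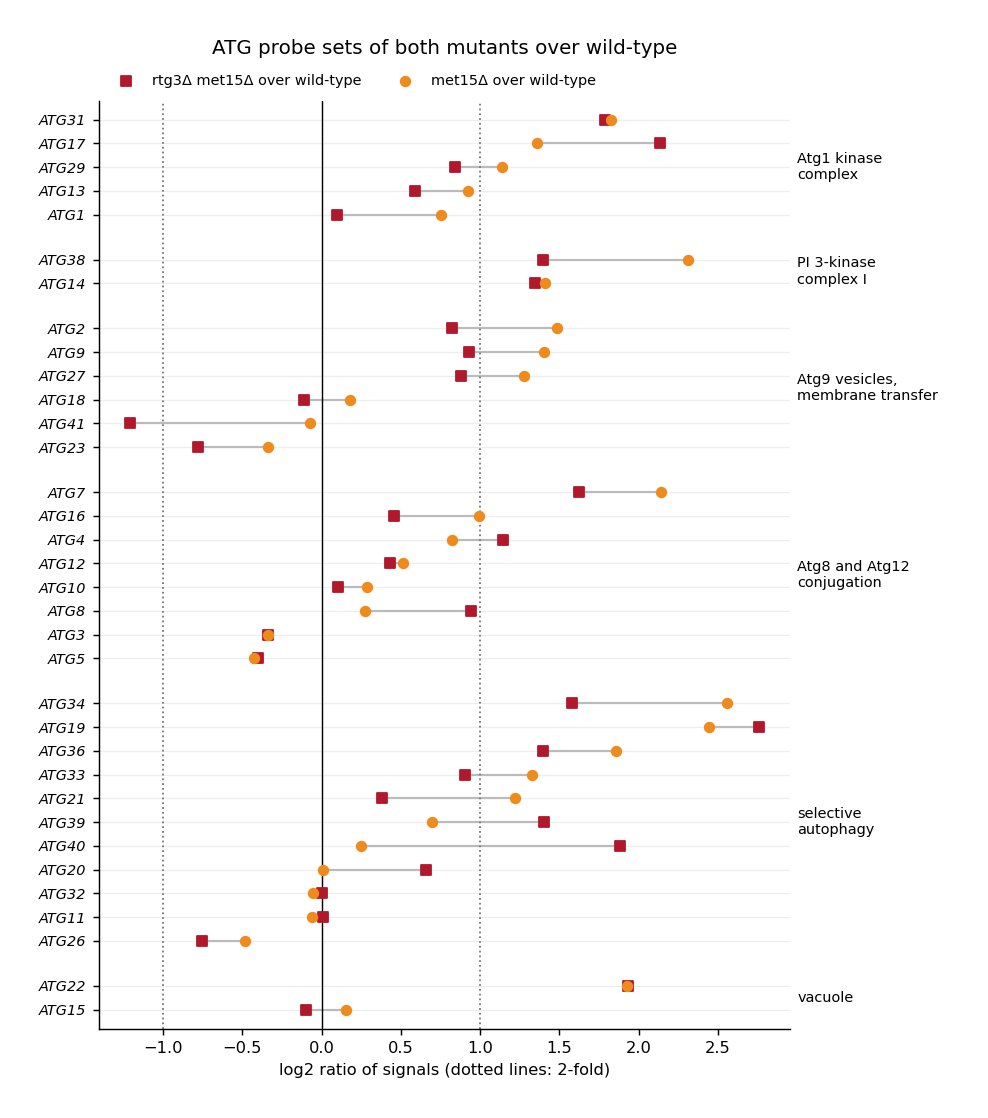
Log2 ratios of signals over wild-type for the 34 *ATG* probe sets, grouped by role: *rtg3Δ met15Δ* (red squares) and *met15Δ* (orange circles), joined by a line for each gene, with dotted lines at 2-fold. Both points of a gene share the wild-type array. *ATG34*, *ATG38* and *ATG21* lie further right in *met15Δ* cells, and *ATG40*, *ATG17* and *ATG39* further right in *rtg3Δ met15Δ* cells.

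Against wild-type, the double mutant had 12 *ATG* probe sets at least 2-fold higher, or 35.3%, and 1 at least 2-fold lower, while over all *S. cerevisiae* probe sets 21.1% were higher and 17.2% lower. The median log2 ratio was 0.83 for the *ATG* probe sets and 0.08 over all. This comparison shares the wild-type array with the one above, so the values are set side by side only. *ATG19* was 6.77-fold higher than in wild-type in *rtg3Δ met15Δ* cells and 5.43-fold in *met15Δ* cells. *ATG22* was 3.82-fold higher in *rtg3Δ met15Δ* and 3.79-fold in *met15Δ* cells, *ATG31* 3.45-fold in *rtg3Δ met15Δ* and 3.55-fold in *met15Δ* cells, and *ATG36* 2.63-fold in *rtg3Δ met15Δ* and 3.63-fold in *met15Δ* cells. *ATG40* was 3.68-fold higher in the double mutant and 1.19-fold higher in *met15Δ* cells, and *ATG39* 2.64-fold in the double mutant and 1.62-fold in *met15Δ* cells. *ATG9*, *ATG33*, *ATG27*, *ATG2* and *ATG21* were at least 2-fold higher than wild-type in *met15Δ* cells and under 2-fold in the double mutant, at log2 ratios of 0.93, 0.90, 0.88, 0.82 and 0.38 there. For *ATG29* only a fold of at least 1.14 can be given in the double mutant. *ATG8*, at 0.94, was just under the threshold as well. *ATG41* was the lower one, 2.31-fold lower in *rtg3Δ met15Δ* than in wild-type cells.

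Most *ATG* genes differed by less than 2-fold between the mutants. Comparing *rtg3Δ met15Δ* with *met15Δ* cells, 1 of the 34 was at least 2-fold higher, or 2.94%, and 1 was at least 2-fold lower. Over all *S. cerevisiae* probe sets 10.4% were higher and 10.6% lower. *ATG40* was 3.10-fold higher and *ATG41* 2.19-fold lower in the double mutant. The ratio was below 0 for 22 members and above 0 for 11, and *ATG3* had equal signals in the mutants. The median log2 ratio was -0.26, against -0.03 over all probe sets. After the methods of the study, a difference was counted as *RTG3*-dependent when it passed 2-fold in *met15Δ* cells and was at least 2-fold smaller in the double mutant. By that rule 0 of the 15 higher *ATG* genes were *RTG3*-dependent, where 15.0% of all *S. cerevisiae* probe sets higher in *met15Δ* cells were, and 24.5% of those lower. *ATG34* lay just short of the threshold, with a fold change 1.97 times smaller in the double mutant, followed by *ATG38* at 1.88 times and *ATG21* at 1.79 times. Of the 15, 12 were lower in the double mutant than in *met15Δ* cells and 3 were higher, with a median log2 ratio of -0.43 and a range of -0.98 to 0.78. The *met15Δ* array is in both steps of this rule.

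The *ATG* genes lie on 13 chromosomes, and *ATG19* and *ATG34* were the 2 members next to each other in the gene table. The members were also set against probe sets of like mean signal. Of the 18 members with a mean signal (geometric, over the 3 arrays) from 500 to 2000, 10 were at least 2-fold higher in *met15Δ* than wild-type cells, while 17.2% of all probe sets in that range were. Of the 12 at or above 2000 there were 3, with 13.6% over all, and of the 4 under 500 there were 2, with 23.0% over all. The median log2 ratio of the members was 1.25 in the middle range, 0.26 above it and 1.07 under it. The 15 higher members had wild-type signals of 173 to 2839, with a median of 739, and the other 19 had 60.2 to 21519, with a median of 1839. Over the 34 members Spearman's rho between the log2 ratio and the mean log2 signal was -0.32, and over all 5498 probe sets it was -0.16. All points come from the same pair of arrays, and the ratio and the mean signal share those signals.

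Partners of the *ATG* genes that carry other names were taken from 7 lists of 53 names, of which 47 were found on the array. In *met15Δ* over wild-type cells 12 of the 47 passed 2-fold upward and 3 downward, or 25.5% and 6.38%, where over all *S. cerevisiae* probe sets 16.8% were higher and 11.1% lower. Their median log2 ratio was 0.35. All 3 partners of the lipid kinase were among the higher ones. Vps34 is the kinase, Vps15 its regulatory subunit and Vps30, also called Atg6, the subunit that works with Atg14. *VPS34* had a signal of 1769 in *rtg3Δ met15Δ*, 2791 in *met15Δ* and 1359.6 in wild-type cells. For *VPS15* the signals were 598 in the double mutant, 1563 in *met15Δ* and 306 in wild-type, 5.10-fold higher in *met15Δ* than wild-type. Its wild-type signal lay only a little above the other-species limit of 273. For *VPS30* the signals were 1058 in the double mutant, 2131 in *met15Δ* and 933 in wild-type, 2.28-fold higher in *met15Δ* cells. *VPS15* and *VPS30* were at least 2-fold lower in the double mutant than in *met15Δ* cells, and their differences from wild-type were counted as *RTG3*-dependent.

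**Figure D4:**
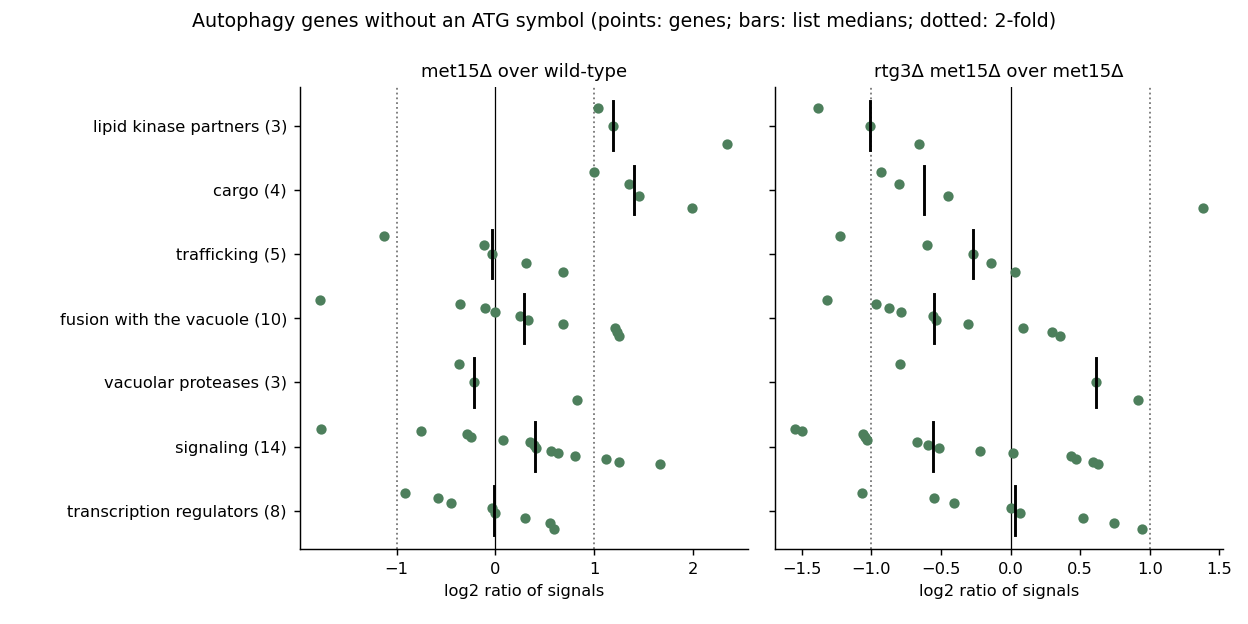
Log2 ratios of signals for the 47 partner genes without an ATG symbol in *met15Δ* over wild-type (left) and *rtg3Δ met15Δ* over *met15Δ* (right), by list, with the number of genes in brackets. Points are genes, bars list medians and dotted lines 2-fold, and the *met15Δ* array enters both panels. The lipid kinase partners have medians of 1.19 on the left and -1.01 on the right, while the vacuolar proteases have -0.22 and 0.62.

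Of the 4 genes for enzymes carried to the vacuole by autophagy, 3 passed 2-fold upward in *met15Δ* cells relative to wild-type and 0 downward. Over all probe sets 16.8% were higher and 11.1% lower. *APE1* had a signal of 2100.1 in *rtg3Δ met15Δ*, 3999 in *met15Δ* and 1006 in wild-type cells, 3.98-fold higher in *met15Δ* than wild-type. *AMS1* had 7239 in the double mutant, 9892 in *met15Δ* and 3595 in wild-type, 2.75-fold higher in *met15Δ* cells, and the aminopeptidase gene *LAP3* 3861 in the double mutant, 6725 in *met15Δ* and 2627 in wild-type, 2.56-fold higher in *met15Δ* cells. *APE4*, another aminopeptidase gene, was highest in the double mutant, at 10769 against 4137 in *met15Δ* and 2074 in wild-type cells. The vacuolar proteases that digest what arrives were within 2-fold in all comparisons. *PEP4* had 17417 in *rtg3Δ met15Δ*, 9236 in *met15Δ* and 10722 in wild-type cells, and the log2 ratio of *PRB1* was -0.37 for *met15Δ* over wild-type.

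The genes for fusion of the closed vesicle with the vacuole were mixed. In *met15Δ* cells relative to wild-type 3 of 10 passed 2-fold upward and 1 downward, with 16.8% and 11.1% over all probe sets. The higher ones were *VPS33* (446 in *rtg3Δ met15Δ*, 1113 in *met15Δ* and 467 in wild-type) and *VPS16* (339 in the double mutant, 620.2 in *met15Δ* and 264 in wild-type), core parts of the tethering complex, and *MON1* (974 in the double mutant, 1205 in *met15Δ* and 522 in wild-type), which activates the fusion GTPase. The wild-type signal of *VPS16* lay under the other-species limit, so its fold for *met15Δ* cells is at least 2.27. *VPS41*, another tethering subunit gene, was the lower one, at 598 in *rtg3Δ met15Δ*, 869 in *met15Δ* and 2976 in wild-type cells. Against the same shares over all probe sets, 1 of 5 trafficking genes was lower and none higher. This was *TRS85*, a gene of a complex that activates the GTPase Ypt1 in autophagy, with 188 in *rtg3Δ met15Δ*, 439 in *met15Δ* and 959 in wild-type cells. The *TRS85* signal of the double mutant lay under the other-species limit. *SNX4*, also called *ATG24*, was level, at 2639.9 in both *rtg3Δ met15Δ* and wild-type and 2576 in *met15Δ* cells.

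Of 14 signaling genes upstream of autophagy, 3 passed 2-fold upward and 1 downward in *met15Δ* cells relative to wild-type, against the 16.8% and 11.1% of all probe sets. *KOG1*, which encodes a subunit of TORC1, was the lower one, with a signal of 818 in *rtg3Δ met15Δ*, 1236 in *met15Δ* and 4207 in wild-type cells. *SNF1*, the AMP-activated kinase gene, had 2166 in the double mutant, 4469 in *met15Δ* and 2051 in wild-type, and *IML1*, a gene of the complex that restrains TORC1, 539.9 in the double mutant, 1522 in *met15Δ* and 638 in wild-type. *TPK2*, a protein kinase A gene, had 7936 in the double mutant, 5145 in *met15Δ* and 1623 in wild-type. Between the mutants 5 of the 14 had less signal in *rtg3Δ met15Δ* than *met15Δ* cells by at least 2-fold and none had more by as much, while over all probe sets 10.6% were lower and 10.4% higher. These were *SNF1*, *IML1*, *RIM15* (721 in *rtg3Δ met15Δ* and 2107 in *met15Δ*), *TOR1* (693 in *rtg3Δ met15Δ* and 1413 in *met15Δ*) and *TOR2* (2629.5 in *rtg3Δ met15Δ* and 5489 in *met15Δ*). *TOR1*, *SNF1* and *TOR2* were only just past 2-fold, at log2 ratios of -1.03, -1.04 and -1.06. Of the 8 transcription regulators none passed 2-fold between *met15Δ* and wild-type cells, and the median log2 ratio was -0.02. *UME6*, a repressor gene of *ATG8*, had 3204 in *rtg3Δ met15Δ*, 1911 in *met15Δ* and 2613 in wild-type cells. *GLN3*, an activator gene of nitrogen-regulated genes, had 831 in the double mutant, 1740.3 in *met15Δ* and 3269.7 in wild-type, and *PHO23*, which belongs to a histone deacetylase complex, had 2852 in the double mutant, 1481 in *met15Δ* and 979 in wild-type. Over all matched partners, 5 of the 12 higher in *met15Δ* cells were counted as *RTG3*-dependent (*IML1*, *SNF1*, *VPS15*, *VPS30* and *VPS33*), where 15.0% of all probe sets higher in *met15Δ* cells were, and the difference from the *ATG* genes was not tested. *VPS30* and *SNF1* passed the threshold only just, at log2 ratios of -1.01 and -1.04 for *rtg3Δ met15Δ* over *met15Δ*. No other scaling of the arrays is given for the partners, so this count may not hold under one.

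Groups for related routes of breakdown are set beside these. Of 40 genes named *VPS* and a number, most of which sort proteins to the vacuole, 16 passed 2-fold upward and 3 downward in *met15Δ* cells relative to wild-type (median log2 ratio 0.51). The *VPS* genes include *VPS15*, *VPS16*, *VPS30*, *VPS33*, *VPS34* and *VPS41*, which were also counted among the partners. Of 34 proteasome genes, the other route of protein breakdown, 13 were higher and 0 lower (median 0.58). Over all probe sets 16.8% were higher and 11.1% lower. Between the mutants the *VPS* genes had 1 higher and 7 lower, and the proteasome genes 1 higher and 3 lower, in *rtg3Δ met15Δ* than in *met15Δ* cells, with 10.4% of all probe sets higher and 10.6% lower. With 1 array per genotype no difference between these groups and the *ATG* genes could be tested.

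The direction of the *ATG* medians was the same under every scaling of the arrays that was tried, but their size and the counts were not. Bacterial control transcripts bioB, bioC and bioD, at 21 probe sets, differed between arrays, by a median of -0.62 (log2) for *met15Δ* over wild-type and 0.78 for *rtg3Δ met15Δ* over *met15Δ*, and the sources used here do not say whether equal amounts were added. Scaling to them moved the median of all *S. cerevisiae* probe sets to 0.61, -0.15 and -0.80 in *met15Δ* over wild-type, *rtg3Δ met15Δ* over wild-type and *rtg3Δ met15Δ* over *met15Δ*, with those of the *ATG* probe sets at 1.41, 0.60 and -1.03. In *met15Δ* over wild-type 21 *ATG* probe sets were then higher and 0 lower, with 33.5% of all higher. Between the mutants 0 *ATG* probe sets were higher and 18 lower, where 39.9% of all were lower, and 13 differences counted as *RTG3*-dependent in place of 0. The share of all probe sets counted so under this scaling is not given here, so whether 13 is many cannot be told. Dividing each array by its median over all probe sets gave medians of -0.24, -0.41 and -0.22 over all in these comparisons and 0.57, 0.34 and -0.45 for the *ATG* probe sets. In *met15Δ* over wild-type 12 *ATG* probe sets were then higher and 0 lower, with 10.4% of all higher, and in *rtg3Δ met15Δ* over wild-type 7 were higher and 3 lower, with 11.2% of all higher and 29.0% lower. Between the mutants 1 was then higher and 4 lower. The direction of members near 0 turned with the scaling. In *met15Δ* over wild-type, the 27 members above 0 and 7 below became 34 and 0 with the bacterial controls, and 21 and 13 with the median of all probe sets, where *ATG8*, *ATG10*, *ATG15*, *ATG18*, *ATG20* and *ATG40* turned. With the *S. cerevisiae* median they were 26 and 8, and *ATG20* turned. In *rtg3Δ met15Δ* over wild-type, the 26 above 0 and 7 below became 23 and 11 with the bacterial controls and 20 and 14 with the median of all probe sets. Between the mutants, the 11 above 0 and 22 below became 2 and 32 with the bacterial controls, where *ATG17* and *ATG40* were the 2 still above 0, and 7 and 27 with the median of all probe sets. With the *S. cerevisiae* median they were 15 and 19, and *ATG12*, *ATG14* and *ATG31* turned. Which scaling is right cannot be told from these arrays.

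**Figure D5:**
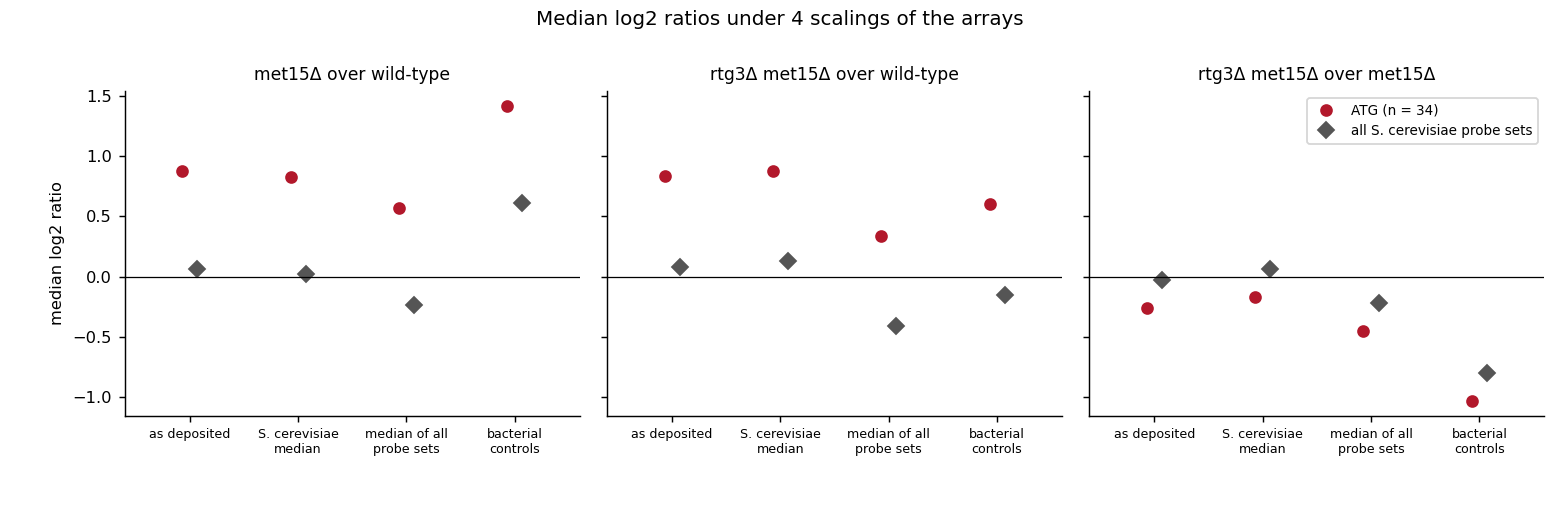
Median log2 ratio of signals in each comparison under 4 scalings of the arrays: as deposited, divided by the *S. cerevisiae* median, by the median of all probe sets, or by the bacterial controls. Red circles are the 34 *ATG* probe sets and grey diamonds all *S. cerevisiae* probe sets. The red circles lie above the grey diamonds in both comparisons with wild-type (0.87 against 0.07 and 0.83 against 0.08 as deposited) and below them between the mutants (-0.26 against -0.03). A scaling moves every log2 ratio of a comparison by the same constant. The gap between circle and diamond is therefore equal under every scaling by construction.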

How the data were processed

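Expression was measured on 3 Affymetrix arrays of 10928 probe sets, 1 per genotype. The deposited values are linear intensity values that the authors computed by RMA in RMAExpress, which corrects background and summarizes the probes of each set, and they were used with no further scaling. The sources used here name neither a genome build nor the normalization option. Genotypes were taken from the submitters' labels. The platform annotation gives 7244 probe sets 1 gene symbol, 1 several and 3683 none, and 5498 belong to *S. cerevisiae* by gene ID (gene table of assembly R64, used for names, order and chromosomes), 1746 to another species. Ratios and their 2-fold calls were computed on these values (Python 3.11.15, pandas 2.3.3). The code was checked on simulated data with planted changes well past 2-fold, which does not show how reliable calls near 2-fold are. The number of arrays limits the precision, and no p-value was computed. Members, role groups and partner lists were chosen with earlier results of these data known. Values on every array are given for members at least 2-fold apart in any comparison, for 8 core members, and for the extremes of each group. A planned search of promoters for motifs was not run, as no sequences were used here.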

Additional observations from a re-analysis of the deposited data

How the results depend on the processing

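Of 8 alternatives, dividing by the *S. cerevisiae* median changed no count of *ATG* probe sets called at 2-fold or counted as *RTG3*-dependent. It did change the counts above and below 0 in *met15Δ* over wild-type and between the mutants. No called *ATG* ratio changed sign under any alternative in which it had a value. For the scalings this was fixed beforehand, since a called ratio is at least 2-fold and no scaling moved the ratios by as much. In *met15Δ* over wild-type, the count of 15 higher became 21 with the bacterial controls (33.5% of all probe sets), 20 at 1.5-fold (29.0%) and 7 at 3-fold (6.73%), and the median of 0.87 became 0.57 with the median of all probe sets, 1.41 with the bacterial controls, 0.73 with 100 added to each signal, 0.73 with low signals raised to the other-species limit, and 0.70 with probe sets under it left out. In *rtg3Δ met15Δ* over wild-type, the 12 higher and 1 lower became 7 and 3 with the median of all probe sets (11.2% and 29.0% of all), 11 and 2 with the bacterial controls (15.7% and 22.4%), 20 and 3 at 1.5-fold (32.6% and 26.8%), and 6 and 0 at 3-fold (9.66% and 8.28%), and the median of 0.83 became 0.34, 0.60, 0.69 (100 added) and 0.66 (low probe sets left out). In *rtg3Δ met15Δ* over *met15Δ*, the 1 higher and 1 lower became 1 and 4 with the median of all probe sets (7.88% and 16.1% of all), 0 and 18 with the bacterial controls (2.80% and 39.9%), 5 and 6 at 1.5-fold (19.9% and 24%), and 1 and 0 at 3-fold (4.02% and 3.00%), and the median of -0.26 became -0.45 and -1.03 with those 2 scalings. The *RTG3*-dependent count of 0 became 2 (*ATG34* and *ATG38*) with the median of all probe sets, 13 with the bacterial controls and 5 at 1.5-fold. No share over all probe sets is given for these counts, so they cannot be read as particular to the *ATG* genes. The shifts under a scaling follow from its construction, since it moves every ratio of a comparison by 1 constant. No paired analysis was possible because each genotype had 1 array, and no array could be left out. Signals near the other-species limit limit what can be said of *ATG7*, *ATG14*, *ATG15*, *ATG16*, *ATG17*, *ATG29* and *ATG38*, and of the partners *VPS15*, *VPS16* and *TRS85*.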

Other observations

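Equal signals recurred between arrays. Within 1e-06, 2.87% of the *S. cerevisiae* probe sets had the same signal in *met15Δ* and wild-type, 2.55% in *rtg3Δ met15Δ* and wild-type, and 3.18% in *rtg3Δ met15Δ* and *met15Δ*. *ATG3* was one of these between the mutants and *ATG32* between *rtg3Δ met15Δ* and wild-type, as was the partner gene *SNX4*. *ATG42*, *ATG44* and *ATG45* of the current gene table were not analysed here.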
